A study of Mus musculus with 10 samples.

Results

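The sites described here are the open chromatin sites at gene ends, meaning the nuclear sites of the deposited ATAC-seq table that lie within 1 kb of either end of a protein-coding gene on GRCm38. There were 9825 of them among 39655 nuclear sites (24.8%) and 39657 sites in all, the remainder being mitochondrial. ATAC-seq reads how accessible chromatin is to a transposase, and the sites were measured in 10 libraries of mouse Th17 cells, a helper T cell class named for its cytokine interleukin-17. Naive CD4+ T cells of spleen and lymph node were cultured for 3 days with antibodies to CD3 and CD28, interleukin-6, transforming growth factor beta and an antibody to interferon gamma. KO cells were PDHfl/fl CD4 Cre+ (PHD-fl/fl_CD4cre in the sample titles), with floxed pyruvate dehydrogenase and a Cre transgene driven by Cd4 regulatory sequence, so deletion begins in developing T cells, CD8 T cells included. WT cells were PDHfl/fl without Cre (PHD-fl/fl in the titles), so the floxed allele is shared by all groups and the genotypes differ in Cre as well as in the enzyme. The groups were KO untreated (n = 3), WT untreated (n = 3), KO with 10 mM sodium acetate during the culture (n = 2) and WT with the same acetate (n = 2). The sources used here give neither the age of the mice nor which gene of the enzyme is floxed. Whether replicates are separate mice is not stated, and p-values then reflect the spread among libraries, which may be technical.

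Active promoters in mammals are kept free of nucleosomes around the transcription start, and many lie in CpG islands, where factors such as SP1, NFY, ETS proteins and NRF1 bind. Sites at gene starts are often open in many cell types, whereas distal enhancers are more often open in 1 cell type. Pyruvate dehydrogenase turns pyruvate into mitochondrial acetyl-CoA, which leaves the mitochondrion as citrate and serves histone acetylation and lipid synthesis. Acetate is another source of cytosolic and nuclear acetyl-CoA, through the ACSS enzymes. By its title the study is about pyruvate dehydrogenase and citrate in Th17 cells, and the comparisons below ask what its loss and added acetate do at gene ends.

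The 9825 sites belonged to 9062 of 21900 protein-coding genes (41.4%). A single site was found for 6968 genes, and 2094 genes had 2 or more, up to 5. Most sites (97.1%) had 1 common width, the widest was 689 bp, and 4534 (46.1%) overlapped the gene end itself. A site lay at the ends of 2 or more genes in 1621 cases (16.5%), as at the shared promoters of divergent gene pairs. Such a site was counted for each of these genes, also in the gene lists. The gene table carries no strand, so strand was taken from the RefSeq promoter table of GRCm38.p6, which gave it for 79.9% of genes. On that basis 7224 sites (73.5%) lay near a transcription start, 753 (7.66%) near a finish only, and 1848 (18.8%) near an end of unknown kind. A promoter window, from 250 bases before to 50 after a start, was touched by 5102 sites (51.9%) and by 762 (2.55%) of the other nuclear sites. The label promoter-like therefore holds for most of these sites and not for all. At the edge of the rule, the 151 sites in the last 50 bp inside the limit had a median signal of 126, and the 135 sites in the first 50 bp outside it had 136.

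The promoters below show the kinds of sequence behind these sites, each given 5′ to 3′ on the gene's strand from RefSeq (GRCm38.p6), limited to the bases before the start that the open site covers. Capitals mark letters that match 1 of 14 motifs searched on both strands. The first 4 are promoters of housekeeping or broadly used genes, and the last 4 are promoters of T cell genes and of Gpr146. Klf13, which encodes a zinc finger transcription factor, and Siva1, an apoptosis regulator, were among the 5 gene ends of highest signal. Rplp0 encodes a protein of the large ribosomal subunit, and Slc2a1 encodes the glucose transporter GLUT1. Lck encodes the kinase that starts T cell receptor signalling, Gzmb the protease granzyme B, Il23r the interleukin-23 receptor that stabilises Th17 cells, and Gpr146 a G protein-coupled receptor. Their positions are chr7:63938976-63939165 (Klf13, minus strand), chr12:112644588-112644788 (Siva1, plus), chr5:115559270-115559466 (Rplp0, plus) and chr4:119108553-119108744 (Slc2a1, plus). Those of the others are chr4:129573642-129573760 (Lck, minus), chr14:56262335-56262469 (Gzmb, minus), chr6:67491856-67492030 (Il23r, minus) and chr5:139377591-139377696 (Gpr146, plus).
Klf13: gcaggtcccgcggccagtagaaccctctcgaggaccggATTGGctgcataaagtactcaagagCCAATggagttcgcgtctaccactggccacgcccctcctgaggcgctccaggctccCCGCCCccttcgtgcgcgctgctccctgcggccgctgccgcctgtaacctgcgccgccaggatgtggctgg
Siva1: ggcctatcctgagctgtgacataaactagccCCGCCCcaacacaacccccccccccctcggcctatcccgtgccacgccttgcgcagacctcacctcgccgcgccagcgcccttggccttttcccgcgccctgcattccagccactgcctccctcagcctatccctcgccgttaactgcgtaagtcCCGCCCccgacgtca
Rplp0: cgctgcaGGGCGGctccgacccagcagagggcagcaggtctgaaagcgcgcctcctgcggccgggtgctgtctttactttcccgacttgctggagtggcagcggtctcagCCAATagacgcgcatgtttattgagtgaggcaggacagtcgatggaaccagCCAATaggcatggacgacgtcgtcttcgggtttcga
Slc2a1: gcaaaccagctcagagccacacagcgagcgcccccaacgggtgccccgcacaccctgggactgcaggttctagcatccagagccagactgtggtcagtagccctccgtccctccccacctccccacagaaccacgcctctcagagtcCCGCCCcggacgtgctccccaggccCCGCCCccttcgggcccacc
Lck: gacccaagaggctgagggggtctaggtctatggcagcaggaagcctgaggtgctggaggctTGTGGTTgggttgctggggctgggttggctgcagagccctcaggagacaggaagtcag
Gzmb: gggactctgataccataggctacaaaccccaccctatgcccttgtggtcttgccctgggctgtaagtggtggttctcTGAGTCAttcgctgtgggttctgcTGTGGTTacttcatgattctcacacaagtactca
Il23r: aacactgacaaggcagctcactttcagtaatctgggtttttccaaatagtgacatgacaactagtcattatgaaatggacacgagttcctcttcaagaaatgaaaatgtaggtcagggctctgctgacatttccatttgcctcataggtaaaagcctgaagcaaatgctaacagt
Gpr146: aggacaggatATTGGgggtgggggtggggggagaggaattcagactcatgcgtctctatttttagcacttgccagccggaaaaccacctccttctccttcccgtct
The capitals in Klf13 are 2 NFY matches (CCAAT or its reverse complement) and 1 SP and KLF match (GGGCGG or its reverse complement), and those in Siva1 and Slc2a1 are 2 SP and KLF matches each. In Rplp0 they are 1 SP and KLF match and 2 NFY matches, in Lck 1 RUNX match (TGTGGTT), in Gzmb 1 AP-1 match (TGANTCA) and 1 RUNX match, and in Gpr146 1 NFY match. Il23r held none of the 14 motifs in this window. The stretches held 17 CpG dinucleotides each in Klf13, Siva1 and Rplp0 and 11 in Slc2a1, against 0 in Lck, 1 in Gzmb, 1 in Il23r and 3 in Gpr146.

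Depth is inferred by taking the smallest step between values of a library as 1 read, which the sources do not state; every value lay within 0.001 of a whole number of steps. On that reading, reads in all sites ranged from 3500172 to 13356560 per library, of which 1430317 to 4837002 lay at gene ends, with a median of 132 to 432 reads per gene-end site. The shallowest library was WT acetate 1. The values used here are signal, that is, reads divided by 1 factor per library set by the authors. All untreated KO columns and those of WT untreated 1 and 2 carry the prefix ATAC1, and the remaining 5 carry ATAC2. The column for the third untreated WT library is numbered 4 and that for the second KO acetate library 3, and these numbers are kept here. The share of signal on mitochondrial sites was 1.18 to 2.01% in untreated KO and 0.201 to 0.658% in the other libraries. All 8 T cell markers checked (Cd3e, Cd3d, Cd3g, Cd247, Lck, Zap70, Lat and Cd4) had gene-end sites. Of the Th17 markers, Il17a, Il17f and Il23r had one, and Rora and Ccr6 had none. No gene-end site was listed for Cd8a, Cd8b1, Ms4a1, Cd79b, Pax5 or Ncr1. The 3 sites of the myeloid list summed to 245 to 313 in untreated KO libraries and 519 to 787 in untreated WT libraries. The 4 B cell sites summed to 568 to 719 in untreated KO and 888 to 1315 in untreated WT, and the 8 NK and innate lymphoid sites to 487 to 642 and 900 to 1236. Pdha1 and Pdhb, subunit genes of the enzyme, had no gene-end site, so the deletion has no check at gene ends.

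Gene-end sites carried more signal than the other sites, and most of it close to the start. The median site at a gene start had a signal of 339 over the 10 libraries, and the median site at a finish 133. By distance of the centre from the gene end, the median fell from 397 within 100 bp (4474 sites) through 325 at 100 to 250 bp and 200.9 at 250 to 500 bp to 144 beyond 500 bp (2242 sites). Relative to the direction of transcription, the highest median, 474, was in the bin 100 bp before the start (1673 sites). The bin at the start had 383 (2346 sites), the bin 200 bp before it 416, and the bin 100 bp after it 290. At 1000 bp before and after the start the medians were 128 and 103. Of the gene-end sites, 42.6% were in the top quintile of all sites by mean signal, against 12.6% of the other nuclear sites. In each of the 4 groups the highest median lay in the bin 100 bp before the start, with 569 in untreated WT, 329 in untreated KO, 481 in KO with acetate and 538 in WT with acetate.

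**Figure D1:**
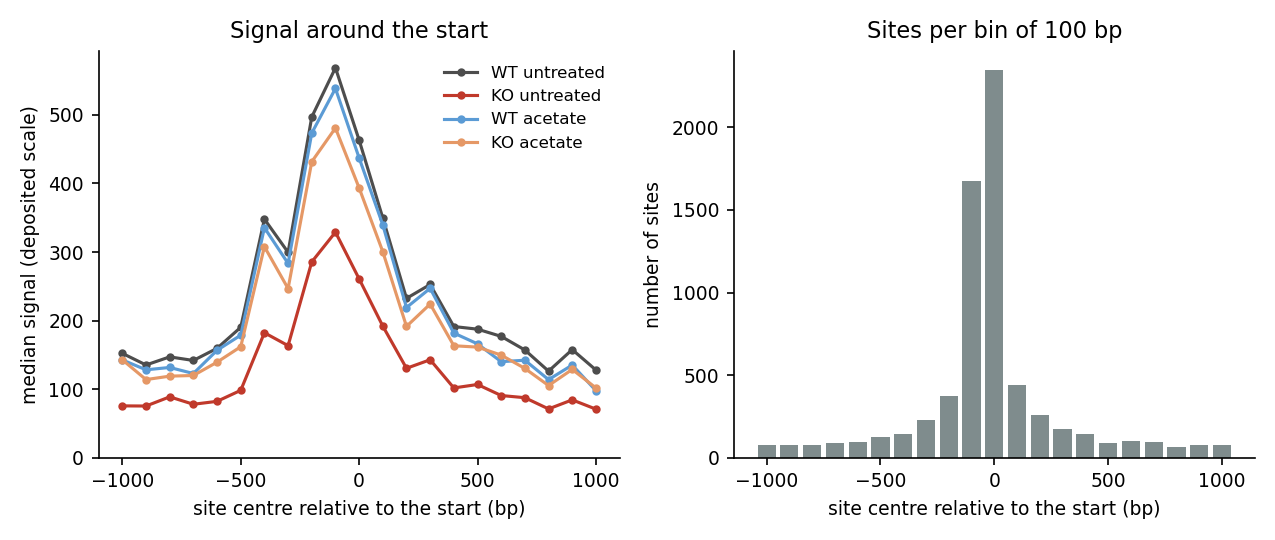
Left, median signal on the deposited scale of gene-end sites in bins of 100 bp by the position of the site's centre relative to the transcription start (negative is before the start), 1 line per group; right, the number of sites in each bin. All 4 lines peak in the bin 100 bp before the start, and the line of untreated KO lies below the other 3 in every bin.

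The 5 gene-end sites of highest signal were at Klf13, Siva1, Maf1 with Sharpin, Nutf2 and Dolpp1. At Klf13 the values were 991, 1149 and 1178 in untreated KO, 1717, 1297 and 1548 in untreated WT, 1268 and 1249 in KO with acetate, and 1745 and 1100 in WT with acetate. At Siva1 they were 876, 961 and 839 in untreated KO, 1231, 1077 and 2125 in untreated WT, 1633 and 1220 in KO with acetate, and 1372 and 1420 in WT with acetate. In both, the 3 untreated KO libraries were the lowest of the untreated libraries, with no overlap with WT, and WT 4 alone was far above the other WT libraries at Siva1.

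The RefSeq promoter windows touched by these sites were rich in CpG, with a median of 23 per 300 bp window against 13 over all 21263 windows. Each of the 5102 sites counts here with the window it overlapped most, so a window can count more than once. GGGCGG, the letters read by SP and KLF factors, was in the window of 71.5% of the 5102 sites and in 46.2% of all windows. CCGGAAG (ETS) was in 23.8% against 11.6%, GCGCATGC (NRF1) in 6.70% against 3.52%, TGACGTCA (CREB and ATF) in 4.45% against 2.23%, AAGATGGC (YY1) in 5.96% against 3.05%, CTCGCGAG (ZBTB33) in 2.57% against 1.24% and CACGTG (E-box) in 11.7% against 7.84%. Other motifs were less frequent at open gene ends than over all windows. TATAAA, the letters of the TATA box, was in 5.72% against 12.6%. AGATAA, read by GATA factors, was in 5.12% against 9.65%. TGANTCA (AP-1) was in 4.02% against 6.99%, and TGTGGTT (RUNX) in 3.59% against 4.71%. TTCNNNGAA (STAT) was in 6.31% against 7.69%, and GAAANTGAA (IRF) in 1.59% against 2.11%. CCAAT (NFY) was about as frequent at both, 37.9% and 38.2%. Sites whose window held CCAAT had more signal, a median of 473 against 366 without. These are matches of letters on either strand, some motifs can overlap, and a match is not a bound site.

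Gene ends held a similar share of each library's nuclear signal in the 4 groups. The share was 39.0, 39.2 and 38.1% in untreated KO and 38.4, 35.5 and 43.8% in untreated WT. It was 38.2 and 40.6% in KO with acetate, and 40.9 and 36.4% in WT with acetate. The means were 38.8 ± 0.567% (SD, n = 3), 39.2 ± 4.24% (n = 3), 39.4 ± 1.69% (n = 2) and 38.7 ± 3.23% (n = 2) in that order. The 4 groups overlapped, and the widest spread was within untreated WT, where library 4 was highest and library 2 lowest. A factor per library cannot change this share. Its 95% Wilson interval reached at most 0.0516 percentage points to either side, which covers counting error only. The signal itself was lower in untreated KO: the median gene-end site had 187, 196 and 232, against 396, 279 and 430 in untreated WT, 324 and 315 in KO with acetate and 406 and 303 in WT with acetate. The other nuclear sites were lower in untreated KO as well, with medians of 74.6, 77.5 and 95.8 against 154, 129.6 and 126.

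**Figure D2:**
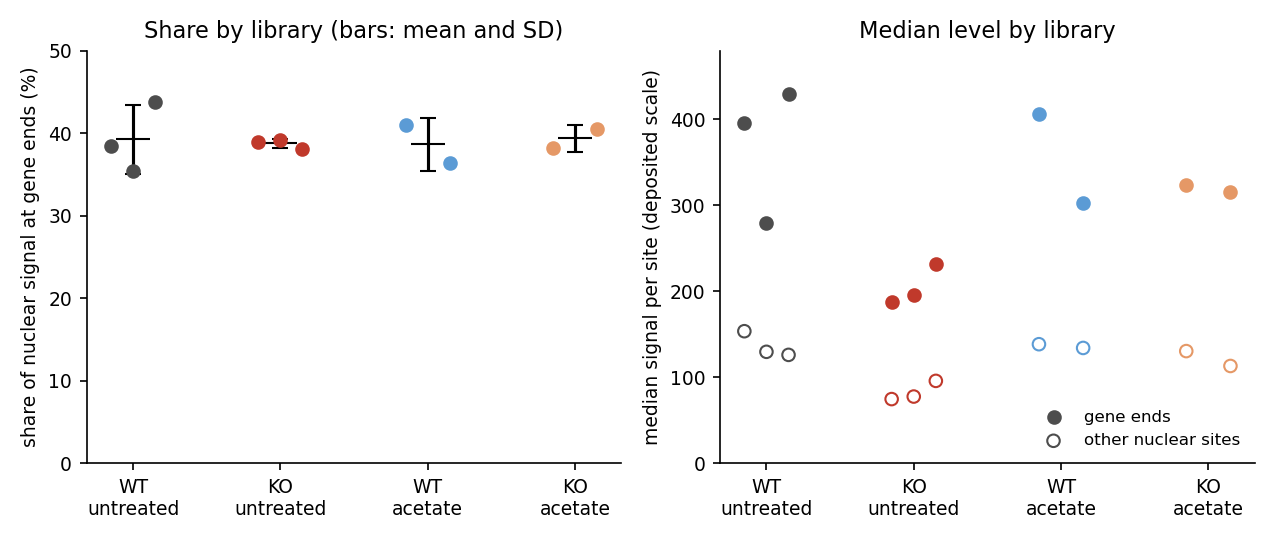
Left, the percent of nuclear signal lying at gene ends, 1 point per library, with the mean and SD of each group; right, the median signal per site on the deposited scale at gene ends (filled) and at other nuclear sites (open). The shares of the 4 groups overlap between 35.5 and 43.8%, and both medians are lowest in the 3 untreated KO libraries.

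Loss of the enzyme in untreated cells went with lower deposited signal at nearly every gene end and with higher signal at few. Of the 9825 sites 147 were higher in KO, where 9.07% of all 39657 sites were higher, and 9625 (98.0%) were lower, where 89.6% of all sites were lower (limma, Benjamini-Hochberg adjusted p under 0.05). The median log2 difference was -0.80, a fold of 0.575, against -0.84 over all sites. With 1 library left out the gene-end median ran from -0.69 (without WT untreated 4) to -0.97 (without WT untreated 2). The table numbers its sites as differential and is taken as selected on these samples, so these counts are not independent evidence of a difference. No gene-end site had a log2 difference from -0.3 to 0.4, a gap that selection on this comparison would leave. The basis of the selection was not tested. In bulk ATAC-seq, fewer cells with an open site and a less open site in each cell cannot be told apart. The mitochondrial share also differed between the genotypes, by the values above, and its part in the fall was not tested.

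The fall was a shift that gene ends shared with the rest of the table, and it went away once libraries were scaled to a common level. After cyclic loess, which sets the libraries equal across levels, the median over all sites was 0.00. Then 161 gene-end sites were higher (9.35% over all sites) and 101 lower (2.41% over all sites). With total signal the counts were 187 and 240, and with median-of-ratios factors 213 and 122. The direction of the general fall therefore rests on the factors the authors used, and the sources used here do not say how they were made. The 147 rises were all called under each of these 3 scalings as well. These scalings raise untreated KO relative to untreated WT, so a rise could hardly lose its call. That all 147 stayed called is therefore no separate evidence for them. Of the 9625 called lower, 101 were lower with loess, 240 with total signal and 122 with median-of-ratios factors.

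The log2 differences of gene ends had an interquartile range of 0.28, against 0.41 at the other nuclear sites, of which 11.6% were higher. From the 10th to the 90th percentile they spanned 0.55 against 2.05, where the upper bound of the other sites falls among their rises. For sites between genes alone the span was 0.93. Sites inside genes were higher in 10.8% of cases, sites between genes in 9.32% and sites over 50 kb from a gene in 22.2%. Part of this goes with level. In the lowest quintile of signal 9.63% of gene-end sites and 28.3% of other sites were higher, in the next 2.87 and 11.2%, then 2.48 and 6.80%, 0.361 and 3.13%, and in the top quintile 0.0478 and 0.747%. Within each quintile the gene ends had the lower share. These shares are descriptions, and the difference between the classes of sites was not tested.

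**Figure D3:**
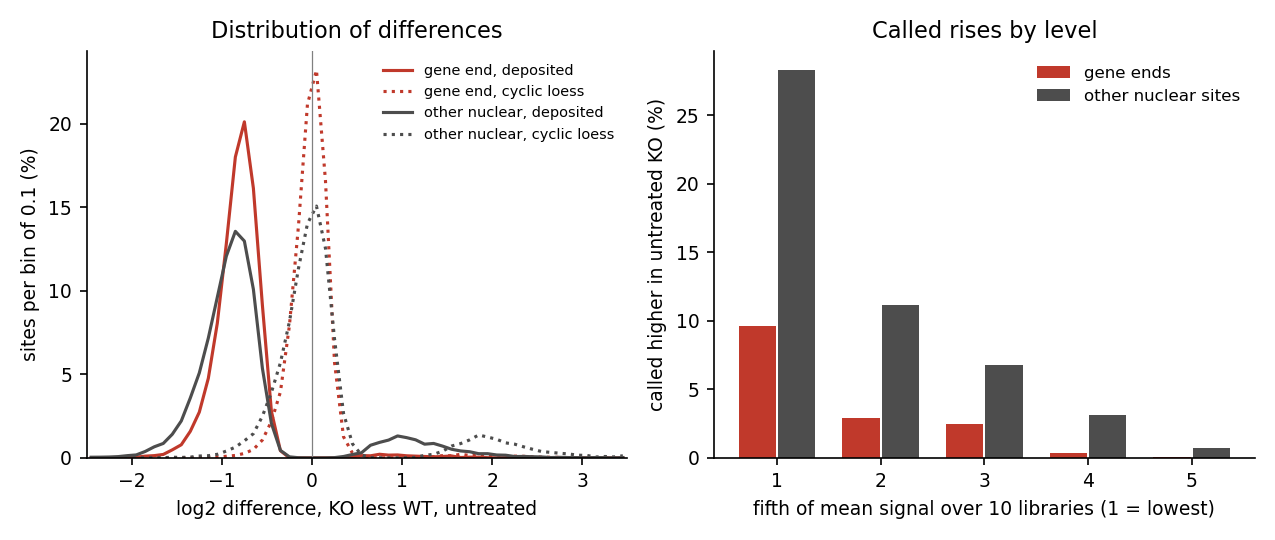
Left, the distribution of log2 differences (KO less WT, untreated) in bins of 0.1 for gene-end sites and other nuclear sites, as deposited (solid) and after cyclic loess (dotted); right, the percent of sites called higher in untreated KO in each quintile of mean signal. As deposited both classes have their main peak below 0, after loess at 0, and the rises form a smaller hump to the right. No gene-end site lies from -0.3 to 0.4 as deposited or from 0.6 to 1.2 after loess. In every quintile the bar of the gene ends is shorter than that of the other sites.

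The rises were mostly at weak sites and away from promoter windows. The 147 sites had a median signal of 62.8, with 98.1 in untreated KO, 43.5 in untreated WT, 66.6 in KO with acetate and 55.7 in WT with acetate, and in 132 of them the 3 KO libraries were all above the 3 WT libraries. Of these sites 52 (35.4%) lay near a start, 47 (32.0%) near a finish and 48 (32.7%) near an end of unknown kind, and 59.2% had their centre more than 500 bp from the end. By distance, 0.291% of sites within 100 bp were higher, 1.42% at 100 to 250 bp, 1.62% at 250 to 500 bp and 3.88% beyond. At finishes 6.24% were higher and at starts 0.720%. Of the 5102 sites that touched a promoter window 16 (0.314%) were higher, against 131 of 4723 (2.77%) that touched none.

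Those 16 promoters were at Iqca, Ackr3, Adamts2, Slc25a48, Olfr175, Loxl4, Col5a1, 6330409D20Rik, Flrt3, Wfdc11, Ifna14, Klk1b9, Col4a1 with Col4a2, Adam25, Htr1b and Mamld1. Most of these genes are known from other tissues, such as collagen genes, an olfactory receptor and a serotonin receptor. Olfr175, Wfdc11, Ifna14 and Klk1b9 are members of large gene families, where reads can be split between copies, so their values are uncertain. In 11 of the 16 the window was in the lowest quintile of CpG count (0 to 15 per window), which held 1131 of the 5102 sites. At 6330409D20Rik (2:32740962-32741162), singled out here after its values were seen, the site lay 46 bp from the start and had the largest log2 difference of any gene-end site. Its values were 191, 245 and 241 in untreated KO, 31.2, 31.1 and 32.1 in untreated WT, 37.5, 31.7 and 43.1 in the acetate libraries KO 1, KO 3 and WT 1, and 37.9 in WT acetate 2. Only the untreated KO libraries were high, and the other 7 lay close together. The difference was 2.80 ± 0.27 (SE, limma adjusted p = 2.03e-16), and acetate in KO changed it by -2.67.

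The 10 largest falls at sites of at least median level were at Gm10277, Zbtb12, Ggta1, Lypla2, Grina, Tnfrsf4, Cdadc1, Gpr146, Spred3 and Dcps, with log2 differences from -2.07 to -1.54. All 10 were also called lower after cyclic loess, where the general shift is removed. Gm10277 is a predicted gene (11:77786049-77786249). Its values were 60.3, 72.9 and 67.4 in untreated KO, 355, 283 and 228 in untreated WT, 392.2 and 268 in KO with acetate, and 437 and 402 in WT with acetate. The 3 untreated KO libraries were the only low ones. The log2 difference was -2.07 ± 0.22 (SE, limma adjusted p = 1.25e-14), and -1.23 after loess.

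Tnfrsf4 encodes OX40, a costimulatory receptor of activated T cells, and its site overlapped the gene's finish (4:156016548-156016748). Values were 49.4, 57.9 and 85.1 in untreated KO and 286, 237 and 113 in untreated WT. They were 244 and 209.7 in KO with acetate, and 295 and 246 in WT with acetate. The untreated groups did not overlap, although WT 4 was much closer to KO than the other WT libraries, and the log2 difference was -1.64 ± 0.24 (adjusted p = 3.52e-08, limma). Spred3, which encodes an inhibitor of Ras signalling, had 63.1, 73.8 and 74.5 in untreated KO against 222, 182 and 233 in untreated WT, and 371, 302, 305 and 368 in the 4 acetate libraries. Again the untreated KO libraries stood alone at the low end, and the acetate libraries were above all untreated ones. At Gpr146 (5:139377591-139377791), whose promoter is printed above, values were 72.4, 71.0 and 89.9 in untreated KO and 265, 178 and 272 in untreated WT, without overlap.

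Dcps, the scavenger enzyme that degrades mRNA caps, had the strongest site of these 10, with 202, 255 and 281 in untreated KO and 765, 623 and 755 in untreated WT. At Zbtb12, a zinc finger protein gene, the means were 48.9 ± 2.51 in untreated KO and 189 ± 32 in untreated WT (SD, n = 3 each). At Ggta1, which encodes an alpha-1,3-galactosyltransferase, they were 89.1 ± 12 and 293 ± 60.8. The untreated groups did not overlap at any of the 10 sites, by the rule that chose them.

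Besides Cd4, described below, the largest rises at sites of at least median level were at Lemd3, Il4i1, Clip4, Synm, Vcam1, Krt16, Plpp1, Aars2 and Wfdc21, with log2 differences from 1.49 down to 0.76. None of these 9 sites had its centre within 250 bp of the gene end, and none touched a promoter window. Starts outside these annotations were not examined. Lemd3 encodes an inner nuclear membrane protein that binds SMAD factors, and its site lay 1046 bp from the start (10:120980342-120980542). Values were 264, 352 and 419.7 in untreated KO, 137, 139.6 and 90.7 in untreated WT, 211 and 143 in KO with acetate, and 209 and 176 in WT with acetate. The untreated KO libraries were the 3 highest of the 10 (log2 difference 1.49 ± 0.22, limma adjusted p = 1.2e-08).

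Il4i1 encodes a secreted oxidase of aromatic amino acids (site 7:44835472-44835672). It had 227, 378 and 358 in untreated KO against 139, 127 and 116 in untreated WT, and 132, 106, 123 and 150.2 in the 4 acetate libraries, KO first. The 3 untreated KO libraries stood alone at the high end (1.30 ± 0.22, limma adjusted p = 4.3e-07). Clip4, of a family of microtubule-binding proteins, had 140.4, 197 and 219.9 in untreated KO against 59.9, 69.3 and 105 in untreated WT, but 202 and 181 in KO with acetate and 169 and 186 in WT with acetate. There the 3 untreated WT libraries were the low ones. Vcam1, which encodes a vascular adhesion molecule, had a mean of 224 ± 43.5 in untreated KO and 109 ± 8.44 in untreated WT (SD, n = 3 each). Wfdc21 is a member of a gene family with similar copies, so its value is uncertain.

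**Figure D4:**
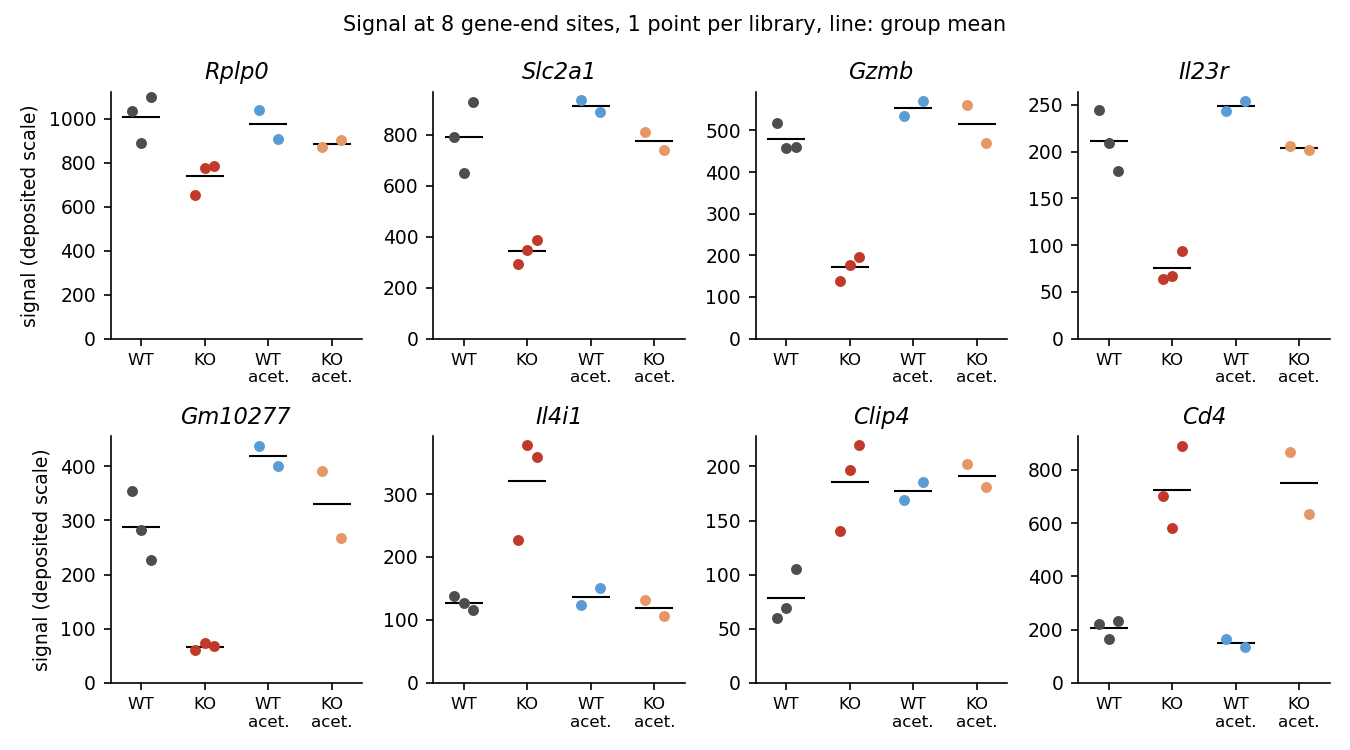
Signal on the deposited scale at 8 gene-end sites, 1 point per library and a line at the group mean, with a vertical axis of its own for each site. Untreated KO is low at Slc2a1, Gzmb, Il23r and Gm10277 and high at Il4i1, Cd4 is high in both KO groups, and at Clip4 untreated WT is low.

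The Th17 list (25 genes in the gene table, 16 with 22 gene-end sites) had 0 sites higher and 22 lower in untreated KO, with a median of -0.75. Over all gene ends 98.0% were lower and the median was -0.80, so the count is near the background. Like every list here it was chosen with earlier results of these data known. After loess, where 161 of the 9825 gene ends were higher and 101 lower, 0 were higher and 1 was lower, at Il23r. That site (6:67491830-67492030) had 64.2, 67.3 and 93.4 in untreated KO, 245, 209 and 179 in untreated WT, 205 and 202 in KO with acetate, and 243 and 254 in WT with acetate. The 3 untreated KO libraries were below the other 7 (-1.49 ± 0.22, limma adjusted p = 1.39e-08, and -0.63 after loess). Il17a, the signature cytokine gene, had its gene-end site 806 bp from the start (1:20731611-20731811). Its values were 130.0, 86.9 and 135 in untreated KO, 205, 232 and 142 in untreated WT, 160.3 and 128 in KO with acetate, and a mean of 193 ± 9.86 in WT with acetate (SD, n = 2). The untreated groups did not overlap, though WT 4 came close to KO, and the log2 difference of -0.71 ± 0.22 (adjusted p = 0.0023, limma) turned to 0.15 after loess and was not called there. At Il17f the difference was -1.05 ± 0.22, and -0.21, not called, after loess. Stat3, the transcription factor that interleukin-6 activates, fell from 1249 in WT to 825 in KO (means), with 0.03 after loess. Lif had the lowest log2 difference of the list, -1.72 ± 0.29, with means of 18.1 in untreated KO and 65.4 in untreated WT.

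Genes of T cell activation (27 genes, 21 with 31 sites) had 30 sites lower and 1 higher, near the 98.0% lower over all gene ends, with a median of -0.86 against -0.80. The site that rose lay at the finish of Il2, the growth factor gene, at a low level: 26.6 ± 6.69 in untreated KO and 13.7 ± 7.29 in untreated WT, with overlap between them. Cd44, an adhesion receptor of activated T cells, had 184, 186 and 218 in untreated KO and 498, 366 and 558 in untreated WT. Its 3 KO libraries lay close together and below every WT library (-1.25 ± 0.21, limma adjusted p = 1.93e-07, and -0.48, called, after loess). Of the 31 sites 2 were lower after loess, at Cd44 and at the finish of Fosl2, an AP-1 subunit gene. Myc fell by 0.60 on the log2 scale, with overlap between the groups, and turned to 0.15 after loess. At Il2ra the deposited difference was -0.44 and the loess one 0.22. The orphan nuclear receptor genes Nr4a1, Nr4a2 and Nr4a3, which T cell receptor signals induce, fell by 1.02, 1.02 and 1.24 at their stronger start sites.

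Among genes of the T cell receptor and its proximal signalling (22 genes with 38 sites), 36 sites were lower and 2, both at Cd4, higher, where 98.0% of all gene ends were lower. The median was -0.80, as over all gene ends. Lck (4:129573560-129573760) had 289, 302 and 356 in untreated KO, 770.4, 563 and 885 in untreated WT, 749 and 579 in KO with acetate, and 757 and 702 in WT with acetate. The untreated KO libraries were the 3 lowest of the 10 (-1.21 ± 0.19, limma adjusted p = 1.18e-07, and -0.49, called, after loess). The other site lower after loess was at the finish of Cd3d, a subunit of the receptor complex, with means of 408 in untreated KO and 909 in untreated WT. Fyn, another kinase of the family, fell by only 0.44, from 1254 to 927 (means).

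Cd4 had 4 gene-end sites, of which 2 rose and 2 fell. The site 36 bp from the end (6:124888183-124888383) had 701, 581 and 889 in untreated KO, 219.8, 163 and 232 in untreated WT, 867 and 634 in KO with acetate, and 163 and 134 in WT with acetate. All 5 KO libraries were above all 5 WT libraries, by 1.81 ± 0.21 untreated (limma adjusted p = 1.75e-12). At 6:124887316-124887516 they were 185, 106 and 228 in untreated KO, 37.5, 19.1 and 50.9 in untreated WT, 225 and 145 in KO with acetate, and 15.4 and 18.3 in WT with acetate, again without overlap. At the other end of the gene, shared with Gpr162, the sites fell by 0.87 and 1.98. Since the Cre transgene carries Cd4 regulatory sequence, reads from the transgene and from the gene cannot be told apart.

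Glycolysis genes (22 genes, 17 with 26 sites) had 0 sites higher and 26 lower, a count near the background of 98.0% lower over all gene ends. Their median was -1.02, against -0.80 over all gene ends. Naive T cells raise glycolysis when they are activated. Slc2a1 (4:119108553-119108753) had 294, 348 and 388 in untreated KO, 792, 651 and 928 in untreated WT, 812 and 741 in KO with acetate, and 935 and 887 in WT with acetate. The 3 untreated KO libraries lay well below the other 7 (-1.19 ± 0.19, limma adjusted p = 7.34e-08). Slc16a3, the lactate exporter MCT4, had 150.3, 153 and 145 in untreated KO against 435, 297 and 457 in untreated WT, a difference of -1.37 ± 0.21. These were the 2 glycolysis sites still lower after loess, with -0.50 and -0.56, and the loess median of the list was -0.23. With median-of-ratios factors Slc2a1 had -0.39 and was not called. The strongest site of Pkm, the pyruvate kinase gene, fell by 0.44, and the 4 sites of Gapdh fell by 0.67 to 1.25.

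Pyruvate dehydrogenase and TCA cycle genes (26 genes with 30 sites) were 0 higher and 30 lower, with a median of -0.77, and 0 and 0 after loess. This count and those of the next 4 lists are near the background of 98.0% lower over all gene ends, whose median was -0.80. Dlat, the acetyltransferase subunit of the enzyme, fell at both sites, by 1.02 and 0.95. Citrate synthase, Cs, fell at its strong start site from 749.8 to 547 (means). The citrate, acetyl-CoA and fatty acid list (16 genes with 17 sites) was 0 higher and 17 lower, with a median of -0.87. Acly, which splits citrate into acetyl-CoA, went from 1003 ± 222 in untreated WT to 634 ± 75.6 in untreated KO (SD, n = 3 each), -0.64 as deposited and 0.00 after loess. Acss2, which makes acetyl-CoA from acetate, shares its site, at the finish of a gene, with Gss (2:155563051-155563251), with 91.0, 134 and 137 in untreated KO, 273, 253 and 218 in untreated WT, 271 and 234 in KO with acetate, and 363 and 329 in WT with acetate. The untreated KO libraries were lowest and the WT acetate libraries highest. Of the histone-modifying lists, acetyltransferases were 0 higher and 9 lower (median -0.87) and deacetylases 0 and 14 (median -0.87). Cholesterol synthesis genes had 1 site higher, shared by Sqle and Washc5, and 14 lower, with a median of -0.61.

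Housekeeping lists had counts near the same background of 98.0% lower. Cytosolic ribosomal protein genes (74 genes with 97 sites) were 0 higher and 97 lower (median -0.76), and 0 and 0 after loess. Respiratory chain and ATP synthase genes (95 sites) were 0 and 95 (median -0.72), splicing factors (71 sites) 0 and 71 (median -0.81), and RNA polymerase II factors (83 sites) 0 and 83 (median -0.79). Rplp0 had 654, 775 and 787 in untreated KO, 1034, 892 and 1100 in untreated WT, 871 and 904 in KO with acetate, and 1040 and 909 in WT with acetate. The untreated KO libraries were again the lowest, without overlap with WT, but by only 0.45 on the log2 scale (limma adjusted p = 0.012), and 0.19 after loess, not called. Mitochondrial ribosomal protein genes had 1 site higher, at the finish of Mrpl39, and 78 lower. Proteasome genes had 1 higher, a site shared by Psmg4 and Slc22a23, and 44 lower of 46. Replication-dependent histone genes (36 genes with 41 sites) had 38 lower, 1 higher at H2ac1 and a median of -0.65, and their loess median was 0.14. Their log2 differences ran from -1.49 to 1.21, and the list was not tested against the other gene ends.

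Marker genes of other immune cells had lower signal too, as 98.0% of all gene ends did. Gzmb, in the CD8 list, had its site at the start (14:56262269-56262469), with 139, 177 and 196 in untreated KO, 518, 457 and 459.9 in untreated WT, 561 and 471 in KO with acetate, and 535 and 571 in WT with acetate. The 3 untreated KO libraries were below the other 7 by a wide gap (-1.49 ± 0.21, limma adjusted p = 1.5e-09, and -0.71, called, after loess). The CD8 list had 6 sites, all lower, which summed to 398 to 540 in untreated KO libraries and 984 to 1216 in untreated WT. Spi1, which encodes the myeloid factor PU.1, fell from 373 ± 76.4 to 138 ± 18.6 (-1.41 ± 0.21, and -0.59, called, after loess). The part of other cell types in these results was not tested.

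**Figure D5:**
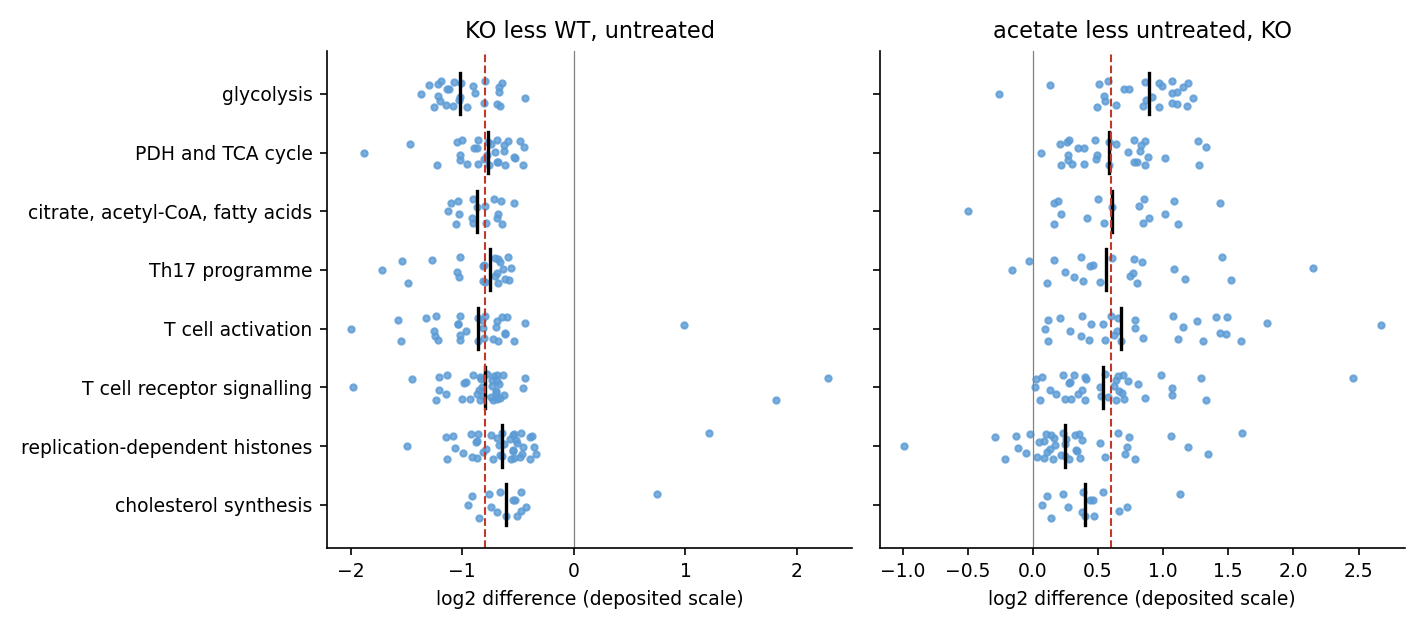
Log2 differences at the gene-end sites of 8 gene lists, 1 point per site, KO less WT untreated on the left and acetate less untreated in KO on the right, with a black bar at each list's median and a dashed line at the median of all gene-end sites. The glycolysis median is -1.02 on the left and 0.89 on the right, and the histone median is -0.65 and 0.25.

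With acetate in both genotypes, few gene ends were called different between KO and WT. Of the 9825 sites 2 were higher (0.0227% over all sites) and 0 lower (0% over all sites) by limma, and 58 had an unadjusted p under 0.05. The counts with cyclic loess were also 2 and 0, with 79 at an unadjusted p under 0.05. Calibrated p-values would put a fraction of 0.05 of the sites there even with no difference. Both 58 and 79 are well below that, so they are no sign of further differences. The reason for the shortfall was not tested. Both called sites are the Cd4 sites above, which differed by 3.35 ± 0.34 (185 ± 56.8 in KO against 16.8 ± 2.03 in WT, SD, n = 2 each, limma adjusted p = 1.51e-12) and by 2.32 ± 0.25 (750.3 ± 165 against 149 ± 20.5, limma adjusted p = 8.76e-13). The median difference over gene ends was -0.13 as deposited and 0.04 after loess. Most of the sites named above lay close together: Slc2a1 had means of 776 in KO and 911 in WT, a difference of -0.23 ± 0.23, Il23r -0.29 ± 0.27, Gzmb -0.11 ± 0.25 and Il4i1 -0.20 ± 0.27. A p that misses the threshold does not show that the genotypes were alike, and with 2 libraries per group only large differences were within reach. If sites entered the table by their untreated genotype difference, a smaller difference with acetate is also partly built in.

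In KO cells acetate went with higher signal at most gene ends. Of the 9825 sites 5839 were higher with acetate (54.6% over all sites) and 85 lower (5.94% over all sites), with a median of 0.60, against 0.61 over all sites. After loess 813 were higher (11.5% over all sites) and 720 lower (16.7% over all sites). All 3 untreated KO libraries carry the prefix ATAC1 and both acetate libraries ATAC2, so acetate and that split cannot be told apart. The untreated KO libraries also served the genotype comparison, so the values below are given side by side and not as a second piece of evidence. The count of higher sites was 2817 without KO acetate 1, 3881 without KO acetate 3 and 3699 without KO untreated 1, and the count of lower sites 44 without KO acetate 3.

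The 5 largest rises were at Ubap1, Gm10277, Spred3, Zbtb12 and Ggta1, from 2.31 to 2.11. Ubap1, a subunit of the ESCRT sorting complex, had 69.1, 64.4 and 68.6 in untreated KO, 389.6 and 293 in KO with acetate, 132, 127 and 263 in untreated WT, and 302 and 308 in WT with acetate. The untreated KO libraries were lowest and the 4 acetate libraries highest (2.31 ± 0.25 in KO, limma adjusted p = 5.52e-14). The largest falls included Il4i1 (-1.40 ± 0.25), Lemd3 (-0.96 ± 0.24), Lpgat1 (-0.90 ± 0.24) and Plpp1 (-0.89 ± 0.24). At Il4i1 the 2 KO acetate libraries had 132 and 106, close to the 5 WT libraries at 116 to 150.2. The calls at Lemd3 and Lpgat1 were lost without KO acetate 3, where the differences were -0.68 and -0.65.

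Of the T cell activation sites 21 of 31 were higher and 0 lower with acetate in KO, where 59.4% of all gene ends were higher, and 7 and 2 after loess. The background for the loess counts of the lists here is 813 higher and 720 lower of 9825 gene ends (11.5% and 16.7% over all sites). Nr4a1 rose at the stronger start site (15:101253841-101254041), from a mean of 181 to 477 (1.41, and 0.82, called, after loess), and at its finish by 2.67. Nr4a2, whose site is shared with a predicted gene, and Nr4a3 (1.49) rose too, both also called after loess. Cd44 rose by 1.48 ± 0.23, Rel, an NF-kappaB subunit gene, by 1.08, and Egr3 by 1.12, all called after loess too. Fos did not pass the test as deposited (0.09) and was lower after loess (-0.51). Of the glycolysis sites 23 of 26 were higher and 0 lower, beside 59.4% higher over all gene ends, with a median of 0.89 against 0.60. After loess 5 were higher, at Slc2a1, Slc16a3, Pfkp, Hk2 and Gpi1, and 1 lower, at the finish of Aldoa. Histone genes had 9 of 41 sites higher and 1 lower, with a median of 0.25 against 0.60, and after loess 2 higher and 14 lower with a median of -0.33. The sites lower after loess included H2ac11 with H2bc11 (-0.71), H2bc14 (-0.51) and H2ac12 with H2bc12 (-0.43). Th17 genes had 11 of 22 sites higher and 0 lower, a share below the 59.4% of all gene ends. Il23r rose by 1.45 ± 0.25, Il17f by 1.08 ± 0.24 and Lif by 2.15 ± 0.33, while Il17a had 0.31 ± 0.25 (limma adjusted p = 0.257). By CpG content of the promoter window, the loess medians were -0.03, -0.01, 0.03, 0.03 and 0.07 from the poorest to the richest quintile.

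In WT cells few gene ends were called with acetate, and the counts moved with single libraries. Of the 9825 sites 70 were higher (2.91% over all sites) and 95 lower (3.02% over all sites), with a median of -0.06. After loess the counts were 126 (4.43% over all sites) and 161 (4.07% over all sites). The counts of higher and lower sites were 5 and 13 without WT acetate 1, 22 and 39 without WT acetate 2, 33 and 22 without WT untreated 1, 43 and 157 without WT untreated 2, and 230 and 156 without WT untreated 4. They were 40 and 62 without KO untreated 1, which enters only through the shared estimate of the spread. Within the ATAC2 libraries they were 92 and 202, but WT 4 is the only untreated library there, and it is assumed to vary like the acetate libraries, which give the spread.

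The largest rises in WT were at Krt16, Igf2bp3, Clip4, Slc24a4 and Aars2. Igf2bp3, an RNA-binding protein gene that is active in fetal blood cells, had its site 37 bp from the start (6:49215406-49215606). Its values were 159, 132 and 214 in untreated WT, 434 and 351 in WT with acetate, 82.8, 78.5 and 83.9 in untreated KO, and 340.2 and 258 in KO with acetate. In both genotypes the acetate libraries were above the untreated ones, by 1.24 ± 0.24 in WT (limma adjusted p = 0.000227) and 1.85 ± 0.24 in KO, with 1.26 and 1.18 after loess. The WT call was lost without WT acetate 1, where the difference was 1.09. Lif rose in WT as well, by 1.44 ± 0.33 (limma adjusted p = 0.00215), from 84.9, 80.4 and 31.0 to 182 and 147.

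The largest falls in WT were at Cd101, Il5, Kxd1, Cnksr3 and Pigh. Cd101, an inhibitory receptor of T cells, had its site 36 bp from the start, with 457, 362 and 199 in untreated WT and 123 and 137 with acetate. Il5, a type 2 cytokine gene, had 353, 328 and 167 in untreated WT and 123 and 119 with acetate. In both, WT 4, which shares the ATAC2 prefix of the acetate libraries, was the lowest untreated library, and the acetate libraries were below it. The differences were -1.30 ± 0.25 at Cd101 and -1.14 ± 0.25 at Il5. Against WT 4 alone, the only untreated library within ATAC2, they were -0.61 and -0.46. In untreated KO the 2 sites had means of 190.2 and 154, and 129.6 and 103 in KO with acetate.

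The test of whether the genotype difference changed with acetate gave 1920 sites with a positive interaction (19.5% over all sites) and 44 with a negative one (3.61% over all sites). After loess 10 were positive (0.139% over all sites) and 105 negative (7.36% over all sites). A prefix effect that is equal in both genotypes cancels from the interaction once WT untreated 4, the only untreated ATAC2 library, is left out. As deposited, the counts were then 1621 positive and 59 negative. A prefix effect that differs between the genotypes cannot be told apart from the interaction. If sites entered the table by their untreated genotype difference, an interaction is also partly built in. The positive count was 21 without KO acetate 1, 102 without KO untreated 1, 165 without WT acetate 2, 271 without WT untreated 1, 292 without KO untreated 2, 674 without KO acetate 3 and 6147 without WT untreated 2. The negative count was 11 to 28 when any library other than WT untreated 2 or 4 was left out. The 10 sites positive after loess were at Cfap45, Gm10277, Gzmb, Tmem160, Nectin2, Spred3, Sphk2, Thy1, Gpr62 and Parp3. Gzmb had an interaction of 1.39 ± 0.32 (limma adjusted p = 0.00463), and 0.77 after loess. Of the negative ones, Lemd3 had -1.63 ± 0.35 (limma adjusted p = 0.00186) and Il4i1 -1.50 ± 0.35. Both sites had their 3 highest values in untreated KO.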

How the data were processed

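The authors deposited normalized signal: reads per site divided by 1 factor per library, whose origin the sources used here do not state. The submitters' processing notes name GRCm38, BWA 0.7.16a, Picard 2.10.9 and, among others, DiffBind 3.6.1 and DESeq2, with no role stated. Depth came from the smallest step of each column (tolerance 0.001 reads). No count test was run on the signal.

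Gene ends came from RefSeq genes of GRCm38.p6 (protein-coding; gap up to 1000 bp). limma 3.58.1 (R 4.3.3; trend and robust options) was fitted to log2(value + 1), a scale that understates changes of low sites, with 4 group means over the 10 libraries and 39657 sites. Benjamini-Hochberg adjustment ran over that whole table, with calls under 0.05. After ±, signal has the SD and a log2 difference its SE. The script was tested on simulated data. Alternatives were 3 other scalings, pseudocounts of 0.5 and 5, a mean signal of at least 20, sites of the common width, no X or Y, windows of 500 bp and 2 kb, starts only, each library left out, 1 prefix only, and a replicate block.

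The members and the 28 gene lists were chosen with earlier results of these data known. Named genes followed a rule: 1 site per gene, called, with groups apart and a mean log2 signal no lower than the table's median, taking the 10 largest rises and falls between untreated genotypes and up to 5 in other comparisons, plus up to 3 called sites and both extremes per list, 24 loci and the 5 strongest sites. The 16 promoters that rose, the 10 interaction sites, 6330409D20Rik and further list genes were named after their values were seen.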

Additional observations from a re-analysis of the deposited data

Results flagged for a closer look

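The size of the genotype difference changed with acetate, by limma's test of the interaction, at 1920 gene-end sites in the positive and 44 in the negative direction (19.5% and 3.61% over all sites). After cyclic loess 10 were positive and 105 negative, and leaving out 1 library moved the counts from 21 to 6147 and from 11 to 61. Sites named in the report were among them. Positive interactions (log2) were found at Gm10277 (1.71), Spred3 (1.57) and Gzmb (1.39), where untreated KO alone was low. Negative interactions were found at Lemd3 (-1.63), Il4i1 (-1.50), Krt16 (-1.35), Aars2 (-1.26), Clip4 (-1.15), Synm (-1.04), Wfdc21 (-0.97) and Plpp1 (-0.95). At Il4i1 and Plpp1 only the untreated KO libraries were high, whereas at Krt16, Aars2 and Clip4 the untreated WT libraries were the low ones and WT rose with acetate. After cyclic loess the 8 negative sites stayed called, and so did the 3 positive ones, which are among the 10 that remained positive. A prefix effect that differs between the genotypes cannot be told apart from these interactions, and an equal one cancels only without WT untreated 4. If sites entered the table by their untreated genotype difference, interactions are also partly built in.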

How the results depend on the processing

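With pseudocounts of 0.5 and 5, the signal minimum, the common width only or no X and Y, all counts of the 5 comparisons stayed within 1.5 times. Lower sites in untreated KO numbered 240 with total signal, 122 with median-of-ratios factors and 101 with loess. In that order, acetate in KO gave 1086, 761 and 813 higher and 615, 823 and 720 lower, the interaction 17, 13 and 10 positive and 82, 98 and 105 negative, and acetate in WT 112, 120 and 126 higher, with 161 lower under loess. The 500 bp window, the 2 kb window and starts only hold other numbers of sites, so their counts cannot be compared with those of the 1 kb rule. In that order, rises in untreated KO were 72, 280 and 41, and falls with acetate in KO 37, 169 and 21. In WT acetate gave 40, 169 and 49 falls, and 122 rises at 2 kb and 30 at starts. Negative interactions were 18, 97 and 11. KO against WT with acetate had 1 rise at 500 bp and 0 at starts. The share of signal at gene ends was 34.5, 34.8, 35.0 and 34.3% at 500 bp and 44.3, 45.0, 45.1 and 44.4% at 2 kb (KO and WT untreated, KO and WT acetate). ATAC2 libraries alone gave 202 falls with acetate in WT, against a lone untreated library assumed to vary like the acetate ones.

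Leaving out 1 library gave 126 to 151 rises and 8969 to 9651 falls in untreated KO, 2 to 3 rises and 0 falls for KO against WT with acetate, 2817 to 6405 and 44 to 89 for acetate in KO, 5 to 230 and 13 to 157 for acetate in WT, and 21 to 6147 and 11 to 61 interactions.

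Same-numbered libraries did not consistently deviate together (r from -0.122 to 0.331), though the largest r was of a same-numbered pair, WT untreated 2 and WT acetate 2. In a group of 2 the deviations mirror each other, so this check cannot decide whether the numbers pair the libraries. The main fit treats them as unpaired. With the replicate block acetate in KO had 46 falls, and acetate in WT 363 rises and 265 falls.

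The signs of some differences turned. The median difference over gene ends was 0.00126 for untreated KO with median-of-ratios, and for KO against WT with acetate 0.0369, 0.0281 and 0.0356 (total signal, median-of-ratios, loess), and with 1 library left out from -0.314 to 0.0484, the extremes being without WT acetate 2 and 1. It was -0.0155 for acetate in KO with median-of-ratios, and for acetate in WT 0.0422 with the replicate block, 0.000861 without WT untreated 1, 0.0422 without WT untreated 4, and over all omissions from -0.245 (WT acetate 1) to 0.132 (WT acetate 2). In untreated KO, with total signal, median-of-ratios and loess, Il17a had 0.0194, 0.0887 and 0.146, Acly 0.0903, 0.16 and 0.00428, Il2ra 0.29, 0.36 and 0.22, Myc 0.13, 0.20 and 0.15, Batf 0.0567, 0.126 and 0.0889 and Hprt 0.0718, 0.141 and 0.146. A Gapdh site had 0.0651 and 0.135 with the first 2, and a Tbx21 site 0.0820 with loess. These 3 scalings remove the general shift by construction. Count tests planned with edgeR were not run, as the values are signal. WT acetate 1 is the shallowest library, with 132 reads at the median gene end.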
